A study of Rattus norvegicus with 12 samples.

Results

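Kcnj16 (ENSRNOG00000004713) and Abcc9 (ENSRNOG00000036960) are 2 of the 20842 genes counted in normal rat kidney (NRK) cells, an established line that the labels call epithelial. The 2 genes were chosen by symbol with earlier results of these same counts in view, and both are listed as changed by the study. Their levels are therefore given as a description, with no test. RNA was sequenced from 12 libraries, 4 each of WT, VAMP7KO and ATG5KO NRK cells, all kept untreated in complete growth medium and numbered 1 to 4, with 1 dish behind each library. The knockout lines were grown from single sorted cells after transfection of Cas9 and guide plasmids, so a difference from WT can also be one between cell clones. The study describes the libraries of a genotype as independent experiments.

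Kcnj16 encodes Kir5.1, an inwardly rectifying potassium channel subunit that joins with Kir4.1, the product of Kcnj10, into pH-sensitive channels. In the kidney these channels sit in the basolateral membrane of distal tubule cells, where they set the membrane potential that drives salt transport. Abcc9 encodes SUR2, a member of the ABC transporter family that is not known as a transporter itself but as the sulfonylurea receptor of ATP-sensitive potassium channels. SUR2 surrounds a pore made of Kir6.1 (Kcnj8) or Kir6.2 (Kcnj11), closes or opens it with the energy state of the cell, and is known from smooth muscle, pericytes, heart and skeletal muscle. Neither Kcnj10, Kcnj8 nor Kcnj11 could be tied to an identifier of the count table, so the partner subunits were not analysed here.

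The sequences before the transcription starts of both genes are shown because the genes share a fall between replicates while they differ in ATG5KO. Each run holds the 250 bases upstream of the RefSeq start (GRCr8 build, 5′ to 3′ on the strand of the gene), with every CG dinucleotide in capitals. The reads were mapped to another build, mRatBN7.2, so these positions are those of RefSeq. Kcnj16 lies on the plus strand at chr10:96517074-96517323 and Abcc9 on the minus strand at chr4:177386349-177386598.
Kcnj16: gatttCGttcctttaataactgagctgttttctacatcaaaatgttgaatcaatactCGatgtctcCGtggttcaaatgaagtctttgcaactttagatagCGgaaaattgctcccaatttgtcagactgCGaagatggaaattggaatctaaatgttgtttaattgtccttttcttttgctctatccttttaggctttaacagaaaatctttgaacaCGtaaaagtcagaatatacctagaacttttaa
Abcc9: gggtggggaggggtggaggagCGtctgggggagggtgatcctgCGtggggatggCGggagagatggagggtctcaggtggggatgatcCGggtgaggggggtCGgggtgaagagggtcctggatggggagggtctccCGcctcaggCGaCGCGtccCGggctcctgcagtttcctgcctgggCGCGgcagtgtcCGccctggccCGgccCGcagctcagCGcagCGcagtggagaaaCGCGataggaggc

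The upstream sequences differed in composition. That of Kcnj16 had 33.6% G and C and 6 CG dinucleotides, whereas that of Abcc9 had 71.2% and 19, beside medians of 51.2% and 5 over 33469 rat upstream sequences of equal length. Fewer G and C than in Kcnj16 were found in 4.19% of these sequences, and fewer than in Abcc9 in 93.1%. On both strands, the AP-1 motif TGANTCA was matched 1 time in Kcnj16 and 0 times in Abcc9 (6.34% of all sequences hold it), and the GC box GGGCGG 0 times in Kcnj16 and 1 time in Abcc9 (30.5%). The E box CANNTG was matched 1 time in each (65.5%), and the TATA box TATAAA (12.9%), the CArG box (1.5%) and the MEF2 site (2.96%) in neither. Such matches describe letters and not bound sites.

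Between 21090858 and 31525111 counts were recorded per library, and 1 count stood for 0.0329 to 0.0465 CPM, the count scaled to a common library size after TMM normalization, which adjusts for composition. Of the 20842 genes, 13141 passed edgeR's filter on low counts and were tested, both Kcnj16 and Abcc9 among them. The targeted gene Vamp7 stood at 111 ± 3.26 CPM in WT (SD, n = 4) but at 46.2 ± 5.17 CPM in VAMP7KO, with a fitted log2 difference of -1.27 (standard error 0.0772; edgeR, Benjamini-Hochberg adjusted p = 6.08e-06). The identifier of Atg5 was not known, so it was not analysed here. Replicates 1 and 2 stood apart from replicates 3 and 4 in every genotype. The labels name no batch, and the methods of the study adjust for one without saying which libraries it joins. The 2 sets are therefore described side by side for Kcnj16 and Abcc9. For most other genes, means with SD (n = 4) pool both sets, and these SDs include any difference between the sets.

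Kcnj16 was lowest in WT, highest in VAMP7KO and between them in ATG5KO in replicates 1 and 2, while both knockout lines had similar levels in replicates 3 and 4. In WT, replicates 1 to 4 had 19, 26, 1 and 1 counts, or 0.642, 0.900, 0.0329 and 0.0357 CPM. In VAMP7KO they had 2674, 2369, 54 and 62 counts, or 89.4, 107, 1.95 and 2.55 CPM. In ATG5KO they had 228, 242, 60 and 40 counts, or 10.6, 8.39, 2.16 and 1.84 CPM. The highest WT library was thus below the lowest library of either knockout line, whereas VAMP7KO and ATG5KO overlapped.

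Abcc9 was also highest in VAMP7KO, but ATG5KO stood below WT, with next to none of the transcript. In WT, replicates 1 to 4 had 831, 732, 155 and 146 counts, or 28.1, 25.3, 5.09 and 5.21 CPM. In VAMP7KO they had 13456, 8803, 1885 and 1657 counts, or 449.6, 398, 68.1 and 68.2 CPM. In ATG5KO they had 1, 11, 2 and 0 counts, or 0.0465, 0.381, 0.0718 and 0 CPM. The lowest VAMP7KO library stood above the highest of WT, the lowest WT library above the highest of ATG5KO, and 3 of the 4 ATG5KO libraries were at or under the floor of 3 counts.

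**Figure D1:**
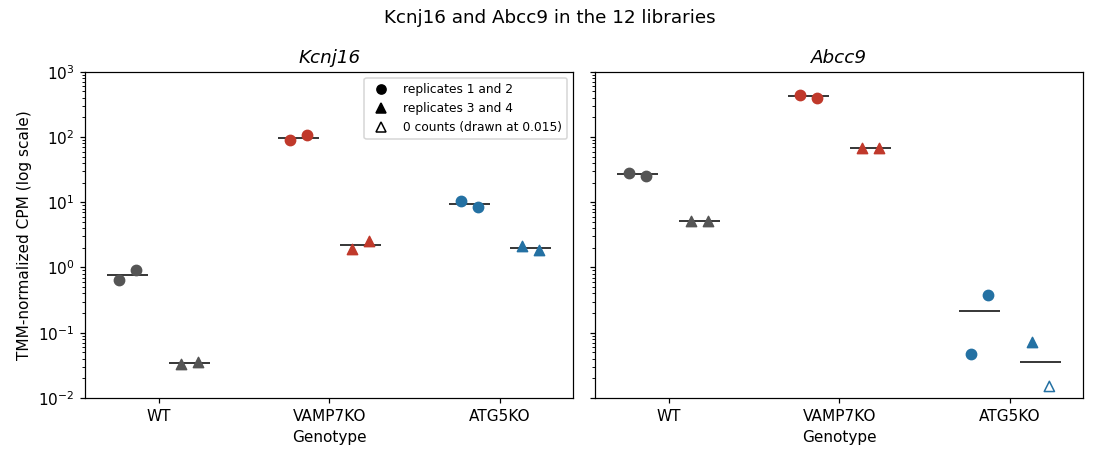
TMM-normalized CPM (log axis) of Kcnj16 and Abcc9 in each of the 12 libraries by genotype, with circles for replicates 1 and 2, triangles for replicates 3 and 4 a line at the mean of each pair and an open triangle for a library with 0 counts. Kcnj16 reached 107 CPM in VAMP7KO but stood near 2 CPM in both knockout lines in replicates 3 and 4, and Abcc9 was at 0.381 CPM or less in every ATG5KO library.

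Over all 13141 genes tested, 6.8% had every VAMP7KO library above every WT library and 8.74% every one below, 14.9% every ATG5KO library above and 13.3% every ATG5KO library below WT, and 13.1% every VAMP7KO library above and 15.3% every one below every ATG5KO library. Kcnj16 and Abcc9 were chosen on these comparisons, so nothing is read from their place among these shares. In bulk RNA, more cells with a transcript and more transcript per cell cannot be told apart, and the same holds for the levels described here.

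The comparison of VAMP7KO with WT asks which transcripts follow the loss of this SNARE of late endosomal secretion. Kcnj16 had a fitted log2 fold change of 6.56 (standard error 0.736) and Abcc9 of 3.87 (standard error 0.152), both higher in 4 of 4 pairs of libraries with equal number. The ratio of summed counts for Abcc9 was 16.01 (95% exact interval 15.2 to 16.9) in replicates 1 and 2 and 13.2 (11.8 to 14.9) in replicates 3 and 4. For Kcnj16 it was 126 (94.0 to 173) in the first set and 65.2 (17.6 to 545) in the second, where WT had 2 counts in all. The ratios of Abcc9 were thus near each other, though their counting intervals did not overlap, and a difference between those of Kcnj16 was not detectable at this depth. These intervals describe counting error alone, because the reads carry no molecular identifiers and are not independent molecules.

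ATG5 is needed for the lipid conjugation of LC3 in autophagosome formation. Against WT, Kcnj16 had a fitted log2 fold change of 4.39 (standard error 0.782) in ATG5KO and was higher in 4 of 4 pairs, whereas Abcc9 had one of -6.83 (standard error 0.281) and was lower in 4 of 4. The count ratio for Kcnj16 was 12.1 (8.92 to 16.9) in replicates 1 and 2 and 59.0 (15.9 to 494) in replicates 3 and 4. For Abcc9 it was 0.00891 (0.0046 to 0.0156) in the first set and 0.00784 (0.000945 to 0.0286) in the second. The size of both fits rested on single libraries: without ATG5KO replicate 2, the value was -8.01 for Abcc9 and 5.24 for Kcnj16. Both comparisons use the same WT libraries, so their values are given side by side and no more.

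Between VAMP7KO and ATG5KO, the fitted log2 fold change was 2.17 (standard error 0.566) for Kcnj16 and 10.70 (standard error 0.258) for Abcc9. Abcc9 was higher in VAMP7KO in 4 of 4 pairs, with a count ratio of 1795 (1028 to 3475) in replicates 1 and 2 and 1687 (467 to 13937) in replicates 3 and 4. Kcnj16 differed between the sets. Its ratio was 10.4 (9.45 to 11.4) in replicates 1 and 2 and 1.11 (0.838 to 1.46) in replicates 3 and 4, and the log2 ratios of the 4 pairs were 3.06, 3.66, -0.14 and 0.45. The excess of Kcnj16 in VAMP7KO over ATG5KO was therefore seen in 1 set of libraries and not in the other, where the interval includes equal levels.

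**Figure D2:**
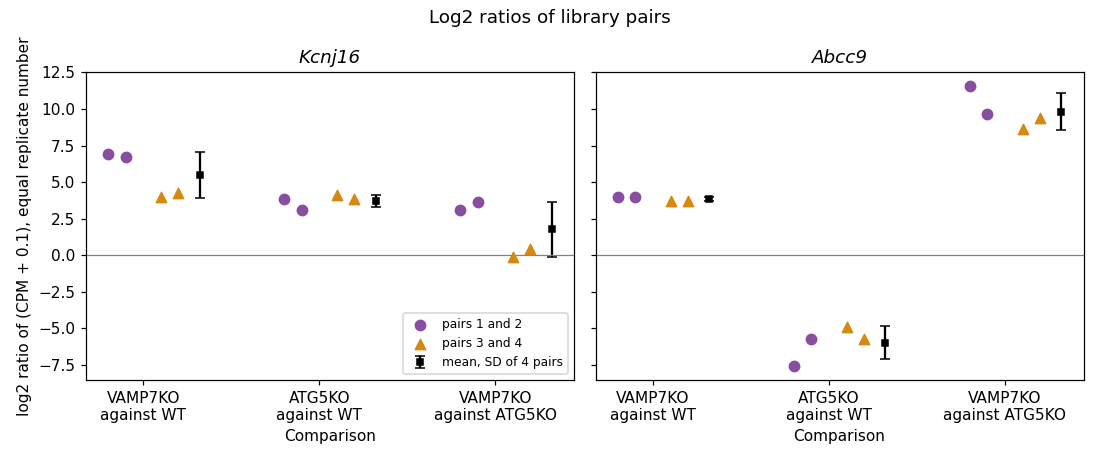
Log2 ratios of (CPM + 0.1) for the 4 pairs of libraries with equal replicate number, in each comparison, with circles for pairs 1 and 2, triangles for pairs 3 and 4 and a square with a bar for the mean and SD of 4 pairs. The ratios of Abcc9 in VAMP7KO against WT lie close together (SD 0.164), and those of Kcnj16 in VAMP7KO against ATG5KO spread the most (SD 1.88) of its 3 comparisons.

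Both genes fell from replicates 1 and 2 to replicates 3 and 4. Kcnj16 was 43.5-fold (36.1 to 52.7) higher in the first set in VAMP7KO, 4.62-fold (3.72 to 5.80) in ATG5KO and 22.5-fold (5.88 to 191) in WT. Abcc9 was 6.28-fold (6.06 to 6.51) higher in VAMP7KO, 5.19-fold (4.59 to 5.89) in WT and 5.90-fold (1.31 to 54.3) in ATG5KO. For Abcc9 the value in ATG5KO rested on 12 and 2 counts, and its 2 sets overlapped there, so a fall in that line was not established. The fold of Kcnj16 was larger in VAMP7KO than in ATG5KO. These intervals describe counting error alone and not the spread between libraries, so no difference between the lines is read from them.

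Most of these falls were large beside the spread within a set. The higher of 2 libraries of a set exceeded the lower by 1.09-fold to 1.40-fold for Kcnj16, and by 1.0-fold to 1.13-fold for Abcc9 in WT and VAMP7KO. In ATG5KO replicates 1 and 2, with 1 and 11 counts, Abcc9 differed by 8.21-fold, more than the fall between the sets there. On the log2(CPM + 0.1) scale, Kcnj16 differed by -5.39 and Abcc9 by -2.64 between the set means in VAMP7KO. The median over all genes was -0.01 and the 5th percentile -1.39. Both genes were chosen with earlier results of these counts in view, so nothing is read from their place among all genes. In WT the differences were -2.698 for Kcnj16 and -2.35 for Abcc9, and in ATG5KO -2.19 and -1.21. Fitted as an interaction of genotype and set, the VAMP7KO effect was shifted by -1.14 (standard error 1.42) for Kcnj16 and -0.26 (standard error 0.170) for Abcc9, and the ATG5KO effect by 2.09 (standard error 0.815) for Kcnj16 and -0.05 (standard error 0.360) for Abcc9. The last value rested on ATG5KO libraries with few counts and ran from -3.31 without ATG5KO replicate 3 to 2.198 without ATG5KO replicate 2.

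Ordered by level, Kcnj16 ran from VAMP7KO replicates 1 and 2 (mean 98.3 CPM) through ATG5KO replicates 1 and 2 (9.49 CPM) to VAMP7KO and ATG5KO replicates 3 and 4 (2.25 and 1.999 CPM), WT replicates 1 and 2 (0.771 CPM) and WT replicates 3 and 4 (0.0343 CPM). Within this order, VAMP7KO and ATG5KO replicates 3 and 4 overlapped and the other neighbours did not. Abcc9 ran from VAMP7KO replicates 1 and 2 (424 CPM) and 3 and 4 (68.1 CPM) through WT (26.7 and 5.15 CPM) to ATG5KO (0.214 and 0.0359 CPM), and only the 2 sets of ATG5KO overlapped. Across the 12 libraries the 2 genes had a Pearson correlation of 0.296 and a Spearman correlation of 0.294 on the log2(CPM + 0.1) scale. The libraries share genotype and set, so no p-value is given.

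Potassium channel subunits other than Kcnj16 were compared next. Of 93 in a fixed list, 9 could be tied to an identifier, all through the lists of changed genes that the study drew from these same counts, which makes them no independent evidence of direction. All 9 passed the filter on low counts. In VAMP7KO against WT, where 22.9% of all genes tested were called at an adjusted p under 0.05 (quasi-likelihood test of edgeR, Benjamini-Hochberg adjusted, used for every call that follows; 10.5% higher and 12.3% lower), 0 of the 9 were higher, 4 were lower and 5 were not called. At an unadjusted p under 0.05, 1 was higher and 5 were lower, and DESeq2 called 0 higher and 4 lower. The median log2 fold change was -2.16, beside 0.00 over all genes. None of the 9 was called in the direction of Kcnj16 in VAMP7KO.

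Among pore-forming subunits, Kcna3, a voltage-gated channel of the Kv family, fell in VAMP7KO from 1.32 ± 0.155 to 0.181 ± 0.183 CPM (SD, n = 4; adjusted p = 0.00623 from edgeR) and in ATG5KO to 0.260 ± 0.227 CPM (adjusted p = 0.00547). Kcnj9, a subunit of G protein-gated inward rectifiers and the only other Kcnj gene that could be named, rose in ATG5KO from 0.205 ± 0.098 to 10.2 ± 2.0 CPM (adjusted p = 9.66e-07 from edgeR) and stood at 0.107 ± 0.0899 CPM in VAMP7KO (adjusted p = 0.261). Kcnt1, a sodium-activated channel, reached 3.59 ± 2.7 CPM in ATG5KO and 0.0518 and 0.0543 CPM in WT and VAMP7KO. Kcnk12 and Kcnk16, channels of the tandem-pore family, were also higher in ATG5KO than in WT, at 1.39 ± 0.740 and 0.568 ± 0.0874 CPM. These 4 inward rectifier, sodium-activated and tandem-pore genes were thus called higher in ATG5KO. None of them was called in VAMP7KO against WT, where the fitted value of Kcnk12 was 1.5 on the log2 scale (edgeR, adjusted p = 0.0769).

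Auxiliary subunits moved in both directions. Kcnmb2, a beta subunit of calcium-activated BK channels, had 5.73 ± 2.17 CPM in WT and 0.186 ± 0.139 CPM in VAMP7KO (log2 fold change -4.98, standard error 0.306, adjusted p = 9.68e-05 from edgeR). It had no count in any ATG5KO library, at least 41.1-fold lower than WT against a floor of 3 counts per library. Kcnab2, a beta subunit of Kv channels, fell by 2.59 on the log2 scale in VAMP7KO (standard error 0.264, adjusted p = 0.000151 from edgeR) and by 0.69 in ATG5KO (adjusted p = 0.0327), and leaving out each library in turn lost the latter call 6 of 12 times. Kcnip4, a calcium-binding partner of Kv4 channels, fell in VAMP7KO (log2 fold change -2.16, standard error 0.402, adjusted p = 0.00394 from edgeR) and rose in ATG5KO (3.69, standard error 0.303, adjusted p = 1.17e-05). Its relative Kcnip3 rose in ATG5KO (2.34, standard error 0.409, adjusted p = 0.00118 from edgeR) and had a log2 fold change of -0.07 in VAMP7KO (adjusted p = 0.934).

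In ATG5KO against WT, where 46.3% of all genes tested were called (23.6% higher and 22.7% lower), 6 of the 9 were higher and 3 lower, with a median of 2.34. In VAMP7KO against ATG5KO, where 44.9% were called (21.3% higher and 23.6% lower), 1 was higher, 7 were lower and 1 was not called, with a median of -2.74. The medians were the same with Kcnmb2 at its bound. Abcc9 was a member that stood higher in VAMP7KO than ATG5KO, a direction that among these 9 only Kcnmb2 was called in, and that call was lost with replicates 1 and 2 alone. Against this list, the shift of the ATG5KO effect between the sets was called for Kcnip4 (28.9% of all genes, 14.4% higher and 14.5% lower), and that of the VAMP7KO effect for 0 of the 9 (16.5% of all genes, 8.97% higher and 7.5% lower), with 0 at an unadjusted p under 0.05 by edgeR and 0 by DESeq2.

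ABC transporters other than Abcc9 were treated in the same way. Of 49, 10 could be named, again only through the study's lists of changed genes, and all 10 were tested. The comparison of VAMP7KO with WT gave 2 that were higher and 4 that were lower, and 4 missed the threshold (median log2 fold change -1.48; 22.9% of all genes were called). Against WT, ATG5KO had 5 of them higher and 3 lower, with 2 not called (median 0.73, beside 46.3% of all genes called), and in VAMP7KO against ATG5KO 2 were higher, 5 lower and 3 not called (median -0.80, beside 44.9%).

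Abca1, which exports cholesterol to apolipoproteins, was the ABC gene of these 10 that rose most in VAMP7KO, from 0.203 ± 0.0929 to 2.45 ± 0.941 CPM (log2 fold change 3.54, standard error 0.348, adjusted p = 0.000121 from edgeR), and stood at 0.237 ± 0.0423 CPM in ATG5KO. Abcd2, a peroxisomal carrier of fatty acids, rose in VAMP7KO to 3.08 ± 0.227 and in ATG5KO to 4.31 ± 0.799 CPM from 1.63 ± 0.447 CPM. Abcb4, which moves phosphatidylcholine across membranes, fell from 50.5 ± 23.0 to 20.1 ± 10.7 CPM in VAMP7KO and 12.0 ± 6.94 CPM in ATG5KO, the former a call lost with no replicate block. Its levels were higher in replicates 3 and 4 than in replicates 1 and 2 in all 3 genotypes (70.3 and 30.7 CPM in WT), the reverse of Abcc9. Abcb6, a porphyrin transporter, fell from 6.40 ± 1.18 to 0.497 ± 0.287 CPM in VAMP7KO and 0.885 ± 0.739 CPM in ATG5KO.

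The genes of the same ABCC subfamily that could be named were Abcc2 and Abcc3, exporters of organic anions. Abcc3 had 4.76 ± 0.424 CPM in WT, 6.30 ± 0.844 CPM in VAMP7KO (adjusted p = 0.0847 from edgeR) and 11.4 ± 3.29 CPM in ATG5KO (adjusted p = 0.000134). Abcc2 stood at 0.239, 0.077 and 0.566 CPM, and its call in ATG5KO did not hold without 5 of the 12 libraries, left out one by one. Neither had the loss in ATG5KO that Abcc9 had. Abca4, a retinoid transporter, rose in ATG5KO from 0.282 ± 0.0816 to 13.1 ± 6.19 CPM (adjusted p = 5.52e-06 from edgeR), and Abca16 was also called higher there. Abca13, a large ABCA protein, had 2.31 ± 1.13 CPM in WT and was called lower in both knockout lines, with 0.304 ± 0.176 CPM in VAMP7KO and 0.0845 ± 0.11 CPM in ATG5KO (log2 fold change -4.65, standard error 0.723, adjusted p = 0.000597 from edgeR). Abca8 was called lower in VAMP7KO, but not in the 4 fits that left out WT or VAMP7KO replicate 1 or 2.

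**Figure D3:**
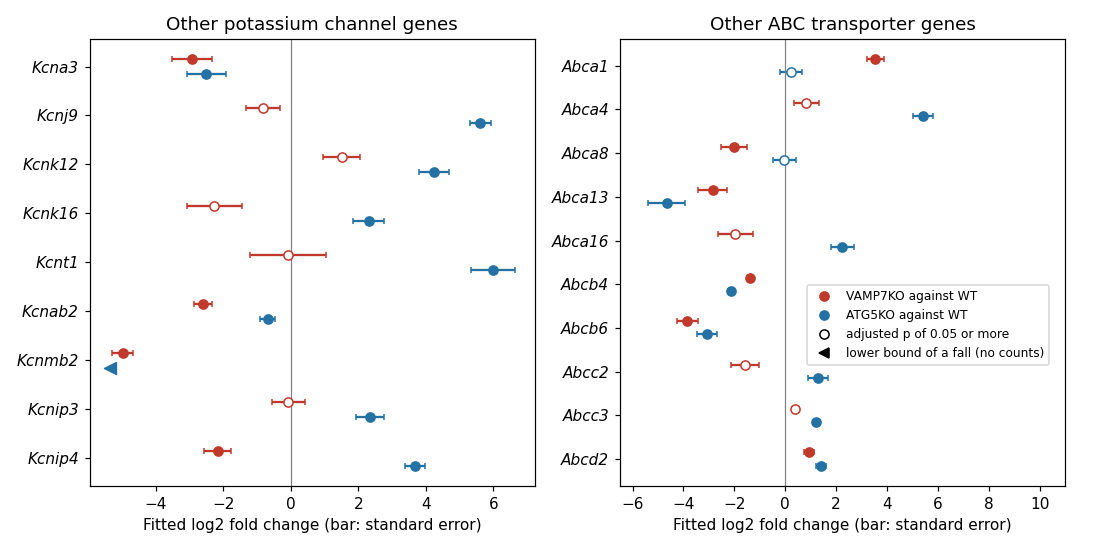
Fitted log2 fold changes of the other potassium channel genes (left) and the other ABC transporter genes (right) in VAMP7KO and ATG5KO against WT, with bars for the standard error, filled symbols for an adjusted p under 0.05 and a triangle for a lower bound. 6 of the 9 channel genes lie right of 0 in ATG5KO and filled symbols of VAMP7KO lie left of 0 for 4. Folds of genes with few counts depend on the fit.

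Genes next to Kcnj16 and Abcc9 on the chromosomes were taken from a fixed list and ordered by RefSeq. Those with an identifier had it through the study's lists of changed genes, so calls among them were likely in advance. Map2k6, a kinase that activates p38, is the protein-coding gene beside Kcnj16 on one side, and Kcnj2, not analysed here, on the other. Map2k6 had 4.83 ± 2.25 CPM in WT, 6.67 ± 4.86 CPM in VAMP7KO (adjusted p = 0.301 from edgeR) and 16.5 ± 7.38 CPM in ATG5KO (log2 fold change 1.80, standard error 0.206, adjusted p = 9.38e-05). It fell from replicates 1 and 2 to replicates 3 and 4 in all 3 lines, in VAMP7KO from 10.7 to 2.67 CPM. Sox9, a transcription factor of cartilage, gonad and kidney development, lies 2 genes from Kcnj16, beyond Kcnj2. It was lower in VAMP7KO (-1.62, standard error 0.166, adjusted p = 0.00016 from edgeR) and in ATG5KO (-1.76, standard error 0.168, adjusted p = 2.97e-05). Sox9 thus did not share the direction of Kcnj16. Abca8, 6 genes away on the side of Map2k6, was called lower in VAMP7KO (-2.01, adjusted p = 0.0181 from edgeR), a call lost in 4 fits with 1 library left out. In ATG5KO it was not called (-0.03, adjusted p = 0.961). Fam20a, 8 genes away, had no count in VAMP7KO and 2.18 ± 0.617 CPM in ATG5KO, and Slc16a6, 12 genes away, did not pass the filter. Fam20a was near the floor in WT as well. Against a floor of 3 counts per library, the bound on its fold below WT in VAMP7KO was 0.944, which shows no fall.

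Kcnj8, which encodes the Kir6.1 pore, and Cmas flank Abcc9, and both were not analysed here. Ldhb, a lactate dehydrogenase subunit gene 2 genes away, had 28.2, 35.0, 16.7 and 16.9 CPM in WT, 89.2, 110.03, 37.0 and 36.4 CPM in VAMP7KO and 15.5, 15.1, 10.02 and 11.1 CPM in ATG5KO. Its groups did not overlap in any of the 3 comparisons, and it was called in the direction of Abcc9 in each comparison, at 1.42 (standard error 0.162, adjusted p = 0.000306) in VAMP7KO against WT, -0.85 (standard error 0.166, adjusted p = 0.00236) in ATG5KO against WT and 2.26 (standard error 0.17, adjusted p = 7.12e-06) in VAMP7KO against ATG5KO, all from edgeR. With no replicate block, the call of Ldhb in ATG5KO was lost. Of all genes tested, 10.5% were called higher in VAMP7KO against WT, 22.7% lower in ATG5KO against WT and 21.3% higher in VAMP7KO against ATG5KO. Groups did not overlap in these directions for 6.8%, 13.3% and 13.1%. Only 2 of 16 genes listed beside Abcc9 were tested, named through the study's lists of changed genes, so nothing is read from their calls. Slco1a4, an organic anion transporter gene 13 genes away, was also called higher in VAMP7KO and lower in ATG5KO, near the floor, and the first of these calls did not hold without any one of 7 libraries. The second was lost without ATG5KO replicate 2, and both were lost with no replicate block. Pde3a, a cyclic nucleotide phosphodiesterase gene 16 genes away, did not pass the filter and was not tested. It had 176, 177, 2 and 13 counts in VAMP7KO, 9, 9, 2 and 3 in WT and 0, 2, 0 and 0 in ATG5KO, so its level in VAMP7KO was high in replicates 1 and 2 only. Slco1a6, 10 genes away, did not pass the filter either.

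For each of the 2 genes, the 5 genes with the highest Pearson correlation of log2(CPM + 0.1) over the 12 libraries were taken from 1309 genes with a symbol, a test and a mean of at least 1 CPM, and each of those 1309 stands in the study's lists of changed genes. Nearest to Kcnj16 were Itgbl1, a secreted integrin-like protein (r = 0.989), Tbc1d8 (0.984), Abra, an actin-binding protein of striated muscle (0.982), Aspnl1 (0.977) and Cyren, a regulator of DNA end joining (0.976). Abra had 13.8 CPM in VAMP7KO replicates 1 and 2 and 0.886 CPM in replicates 3 and 4, and in ATG5KO 2.24 and 0.810 CPM. Aspnl1 had 293 and 8.17 CPM in VAMP7KO and 65.4 and 21.0 CPM in ATG5KO. As with Kcnj16, both set means were thus higher in VAMP7KO than in ATG5KO in replicates 1 and 2, while in replicates 3 and 4 those of Abra were close and that of Aspnl1 was lower in VAMP7KO.

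Nearest to Abcc9 were Klrk1, a receptor of natural killer cells (r = 0.989), Frmpd4, a synaptic scaffold protein (0.983), Gpm6a, a neuronal membrane glycoprotein (0.981), Amot, a regulator of Hippo signalling (0.978), and Mlana, a melanosome protein (0.974). Mlana had 100.5 and 25.0 CPM in WT in the 2 sets, 296 and 120.0 CPM in VAMP7KO and 1.88 and 1.05 CPM in ATG5KO. It fell between the sets in all 3 lines and was next to absent in ATG5KO, as Abcc9 was. Klrk1 was near the floor in ATG5KO (0.052 and 0 CPM). These correlations are across 12 libraries that fall into 6 pairs of genotype and set, and they carry no p-value.

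**Figure D4:**
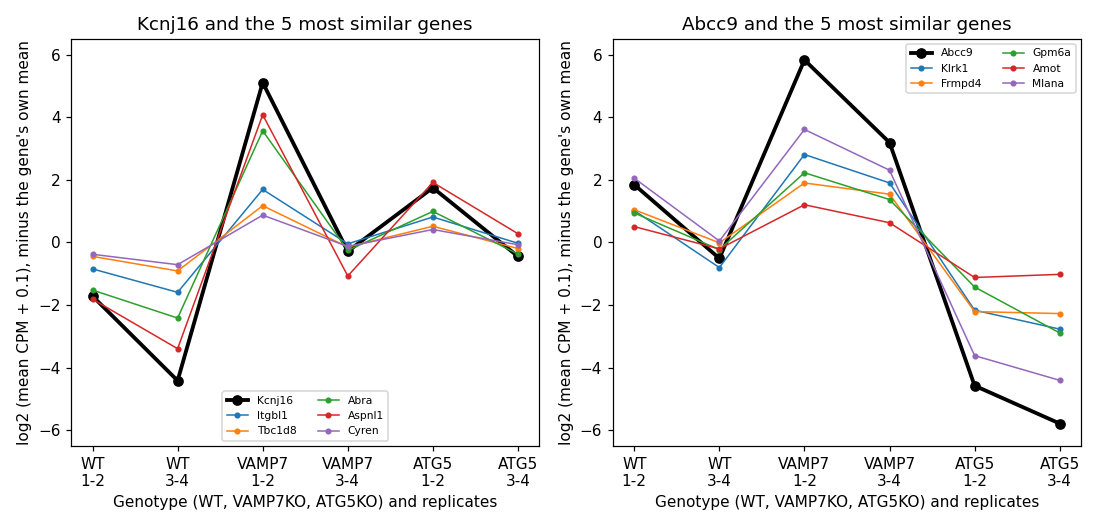
Log2 of (mean CPM + 0.1), minus the mean of each gene over the 6 points, for Kcnj16 (left) and Abcc9 (right) in black and the 5 genes most correlated with each, by genotype and replicates. The genes beside Kcnj16 peak in VAMP7KO replicates 1 and 2, and those beside Abcc9 are lowest in ATG5KO.

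Markers of the cells in which the 2 genes are best known were measured as far as they could be named. Identifiers came only from the study's lists of changed genes, drawn from these same counts. A high share of calls among the markers was thus set in advance, and nothing is read from it beside that of all genes. Of 42 renal tubule genes, 10 could be, and their summed level was 204.7 to 385 CPM in WT, 24.8 to 29.4 CPM in VAMP7KO and 87.0 to 98.1 CPM in ATG5KO. In VAMP7KO against WT, 1 of these was higher, 6 lower and 3 not called (22.9% of all genes were called), and for ATG5KO the counts were 4 higher, 3 lower and 3 not called (46.3%). Among the 6 lower, Cdh16 was near the limit (adjusted p = 0.0499 from edgeR), and 10 of 12 fits with 1 library left out lost its call. With no replicate block, 4 were lower in VAMP7KO. Aqp1, the water channel of the proximal tubule, made up most of the sum in WT and fell from 248 ± 107 to 5.77 ± 5.03 CPM in VAMP7KO (adjusted p = 6.08e-06 from edgeR). Tfap2b had no count in ATG5KO or in VAMP7KO replicates 3 and 4. It was called lower than WT in both lines (edgeR, adjusted p = 8.34e-06 in ATG5KO and 3.2e-05 in VAMP7KO). Slc12a1, the salt carrier of the thick ascending limb, had no count in VAMP7KO. Kcnj16, itself a tubule gene, was higher in VAMP7KO than in WT in both sets, and this sum was lower.

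Of 25 mural cell genes, which mark pericytes and smooth muscle, 8 could be named, again only through the study's lists of changed genes. Their summed level was 86.4 to 184.9 CPM in WT, 198.5 to 266 CPM in VAMP7KO and 156.5 to 239 CPM in ATG5KO. Of the 6 tested, 2 were higher and 3 lower in VAMP7KO against WT (22.9% of all genes were called), and ATG5KO had 2 higher and 0 lower (46.3% of all genes, 0 lower also at an unadjusted p under 0.05 and by DESeq2). The absence of lower calls in ATG5KO did not hold in every fit. With replicates 1 and 2 alone 3 were lower, with replicates 3 and 4 alone 1, and with every gene of at least 1 count kept 1. Acta2, the actin of smooth muscle, rose in VAMP7KO (2.96, standard error 0.339, adjusted p = 0.000301 from edgeR), and Tbx18 by 0.72 (adjusted p = 0.00362), a call lost with no replicate block. Des, a muscle intermediate filament (-1.26, adjusted p = 0.0239 from edgeR), Gjc1, a gap junction protein (-2.11, adjusted p = 0.00404), and Anpep, an aminopeptidase (-2.0, adjusted p = 0.00219), fell there. Des rose in ATG5KO (4.63, adjusted p = 2.03e-06 from edgeR), the line in which Abcc9 was at or near the floor. Acta2 was higher in replicates 3 and 4 than in replicates 1 and 2 of VAMP7KO (102 and 46.4 CPM), unlike Abcc9. The mural sum, however, fell between the sets in each line. In WT it had 177.5 to 184.9 CPM in replicates 1 and 2 and 86.4 to 90.9 CPM in replicates 3 and 4. In VAMP7KO it had 242 to 266 and 198.5 to 207 CPM, and in ATG5KO 198.5 to 239 and 156.5 to 163 CPM.

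Krt8, an epithelial keratin, had 777 ± 107 CPM in WT, 503 ± 55.6 CPM in VAMP7KO and 688 ± 105 CPM in ATG5KO, and Cdh16 1.62 CPM or less in every mean of a set. The other 12 of 14 epithelial markers were not analysed here. Of 10 fibroblast markers, 8 could be named, also only through the study's lists of changed genes. Their summed level was 523 to 1450 CPM in WT, 1044 to 3166 CPM in VAMP7KO and 2207 to 3988.5 CPM in ATG5KO. Most of it came from collagens, and Fap was at 0 in both knockout lines. In VAMP7KO against WT 4 of the 7 tested were higher and 1 lower (22.9% of all genes were called), and for ATG5KO the counts were 6 higher and 1 lower (46.3%). Of the 12 fits with 1 library left out, 7 lost the lower call of Pdpn in VAMP7KO. The higher call of Col1a1 there was lost in 5, and the lower call of Postn in ATG5KO in 6. The fibroblast sum fell between the sets in each line, as did the mural sum and Kcnj16, and Abcc9 in WT and VAMP7KO. In VAMP7KO this sum was 3025 to 3166 CPM in replicates 1 and 2 and 1044 to 1111 CPM in replicates 3 and 4. The part of other cell types in the levels of Kcnj16 and Abcc9 was not tested.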

How the data were processed

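The authors trimmed reads with cutadapt 4.2, removed ribosomal reads with bowtie 2.2.8, used STAR 2.7.10b for alignment on the mRatBN7.2 build, then htseq-count 0.13.5 on Ensembl 110. Per the file headers, the deposited table holds raw counts per gene. Kcnj16, Abcc9 and all lists were chosen with earlier results of these data known. Symbols come from the study's lists of changed genes, which name 1976 of the 20842 genes, so genes without a listed change could not be named. RefSeq gave gene order and upstream sequences. Genes passing edgeR's filter by group (13141) were fitted in R 4.3.3 with edgeR 4.0.16 (TMM, quasi-likelihood, genotype plus replicate number, 12 libraries, Benjamini-Hochberg limit 0.05), and the shift between replicates 1-2 and 3-4 as an interaction. Deviations of libraries with equal numbers correlated at 0.571 to 0.691, so numbers were kept as pairs, but so did those of the other number in a set (0.536 to 0.689). Correlations and exact intervals used scipy 1.17.1. Named genes were all listed members with an identifier and the 5 most alike. Standard errors printed with edgeR fits are the absolute log2 fold change over the square root of F, the quasi-likelihood test statistic. For Abcc9 in VAMP7KO against WT this gave 0.152, beside 0.493 from DESeq2. Alternatives included DESeq2 1.42.0.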

Additional observations from a re-analysis of the deposited data

Results flagged for a closer look

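Among the channel and ABC genes and Vamp7, 6 had a knockout effect that was not the same in both sets of replicates (interaction term in edgeR, Benjamini-Hochberg adjusted p-values). The log2 fold change of Vamp7 in VAMP7KO was lower by 0.30 in the second set (a difference of -0.30, adjusted p = 0.0377). In ATG5KO the difference was 1.28 for Kcnip4 (adjusted p = 0.00977), -1.69 for Abca4 (adjusted p = 0.049), 6.41 for Abca13 (adjusted p = 0.0066), -1.94 for Abcb6 (adjusted p = 0.00694) and -0.57 for Abcc3 (adjusted p = 0.047). The 5 genes called in ATG5KO are of 9 channel and 10 ABC genes, beside 28.9% of all genes called for this shift and 16.5% for that in VAMP7KO, so they are near the share of all genes. Abca13 had no count in ATG5KO replicates 1 and 2, so the size of its value depends on the fit.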

How the results depend on the processing

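For Kcnj16 in ATG5KO, the log2 fold change against WT was 4.87 with DESeq2, 3.82 with no replicate block, 3.58 with replicates 1 and 2 alone and 5.70 with replicates 3 and 4 alone, and it ran from 3.96 to 5.24 with 1 library left out. With replicates 3 and 4 alone, the value of VAMP7KO against ATG5KO was 0.15 (standard error 0.318). For Abcc9 in ATG5KO against WT, leaving out 1 library gave -8.01 to -6.24. In the comparisons with WT, both genes kept their directions under every alternative run. Without the replicate block, the standard error of Abcc9 in VAMP7KO against WT was 0.856 and the called ABC genes there numbered 4 in place of 6, Abca8 and Abcb4 being lost, while with the replicate set as the block they numbered 9. The shift of the ATG5KO effect between the sets was called for 3 listed genes with DESeq2's size factors in place of 5, and for 2 to 4 with 1 library left out. Signs were reversed for Acta2 in ATG5KO against WT (-0.87 with replicates 3 and 4 alone), Col3a1 in VAMP7KO against ATG5KO (0.38 with replicates 1 and 2 alone) and Postn in VAMP7KO against WT (-3.37 with replicates 1 and 2 alone). The cause was not tested. Of the genes most like Kcnj16, 2 of 5 were shared with a Spearman correlation and 2 with a pseudocount of 1 CPM, and of those most like Abcc9, 3 and 3. Counts limit Kcnj16 in WT replicates 3 and 4 and Abcc9 in ATG5KO, where values lie near the floor of 0.0986 to 0.139 CPM.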

Other observations

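Among the fibroblast genes, 3 picked after their values were seen had large differences. Lum, a matrix proteoglycan, rose from 3.74 ± 2.56 CPM (SD, n = 4) in WT to 168 ± 141 CPM in VAMP7KO (log2 fold change 5.36, adjusted p = 1.83e-07 from edgeR) and to 68.8 ± 59.7 CPM in ATG5KO (4.02, adjusted p = 1.98e-07). Like Kcnj16 and Abcc9 it fell between the sets, from 289 to 46.9 CPM in VAMP7KO. Thy1, a surface glycoprotein, had 143 ± 73.5 CPM in ATG5KO and 0.334 ± 0.384 CPM in WT, and Pdpn 34.6 ± 3.39 CPM in ATG5KO and no count in VAMP7KO. Pdpn was near the floor in WT as well. Against a floor of 3 counts per library, the bound on its fold below WT in VAMP7KO was 0.759, which shows no fall.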
